A study of Mus musculus with 45 samples.

Results

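Gene expression in the heart of sham-operated mice was set against that of the embryonic mouse heart at stage E12.5 (days after conception), with 1 poly(A) RNA-seq library on each side. Genes were taken by symbol and kept when they reached at least 5 FPKM (reads on a gene scaled for the length of its gene model and for the library's mapped reads) in either library. Both libraries were first rescaled by the median of ratios over the 9433 genes above 1 FPKM in both. This left 8155 of 23284 listed gene symbols, from 2 of the 6 RNA-seq libraries and 45 samples of the series. The series set binding of Gata4, a cardiac transcription factor, and several histone marks beside expression in the embryonic, adult, banded and sham heart. Both libraries came from primary heart tissue, from pooled RNA of which 2 µg entered each preparation. The sham library carries only the stress label Sham, with no age, strain, sex, genotype or vessel given, and the E12.5 library carries only its age. Alleles named Gata4fbio, Rosa26BirA, cTNTcre and Gata4flox are listed for the whole series, without saying which animals bore them. cTNTcre drives Cre recombinase from the cardiac troponin T promoter in cardiomyocytes. The other 4 RNA-seq libraries, shown beside the pair, are 2 of adult heart, 1 of heart labelled Banding (surgical constriction of a large artery) and 1 of E12.5 heart labelled Gata4 KO.

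The heart of the mid-gestation embryo beats while its muscle cells still divide, its chambers are still being patterned and its blood carries embryonic globins. Around birth the muscle cells leave the cell cycle, exchange fetal contractile proteins for adult ones, and turn from glucose and lactate towards fatty acids as fuel. Vessels, pericytes, fibroblasts and resident immune cells come to make up a large share of the adult organ.

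With 1 library a side, no difference below has a replicate check and no p-value was computed. Levels are log2(rescaled FPKM + 1) and differences are sham minus E12.5 on that scale, which understates the difference of low genes. A gene is called higher or lower when the difference is at least 1, which is 2-fold. Fold ratios are ratios of FPKM with exact 95% Clopper-Pearson intervals from recovered whole reads, and these cover counting error only, since reads carried no molecular identifiers. The sham library held 12086929 mapped reads and E12.5 held 21056784, and the 6 libraries together ranged between these values. Reads on listed genes made up 55.6% of mapped reads in sham and 58.0% in banding, against 75.9% in E12.5 and 83.6% and 83.9% in adult. The ribosomal RNA precursor Rn45s took 4.57% of mapped reads in sham and 4.66% in banding, and 0.0425% to 0.287% in the other 4 libraries. Its part in the differences was not tested. The only libraries of 1 group, the 2 adult ones, differed by the rule of size in 31 of 6459 genes (0.48%). Banding differed from sham in 172 of 5095 genes (3.38%), and the Gata4 KO label from E12.5 in 177 of 8217 (2.15%).

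Between sham and E12.5 the rule called 2065 genes higher (25.3%) and 2469 lower (30.3%), and 3621 differed by less than 2-fold. The median difference was -0.16, with quartiles at -1.23 and 1.02, and 1851 genes (22.7%) lay within 0.5 of no difference. At least 4-fold separated 976 higher and 969 lower genes, at least 16-fold 162 and 106, and at least 64-fold 32 and 15. The split depends on scaling. On the values as deposited, with no rescaling, 871 genes were higher and 4976 lower, so that 14.9% of the calls were higher against 45.5% here. Scaling over genes above 5 FPKM in both gave 1661 and 3004, or 35.6%. The median difference over all genes was -1.28 as deposited and -0.49 with the latter scaling. Of the genes kept, 53 were listed at 0 reads in E12.5 and 48 in sham. At the limit of the rule, B230119M05Rik entered with 5.001 FPKM in E12.5, and Pcnx stayed out with 4.998 in sham. There were 15129 symbols under the limit, of which 5184 were at 0 in both libraries.

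**Figure D1:**
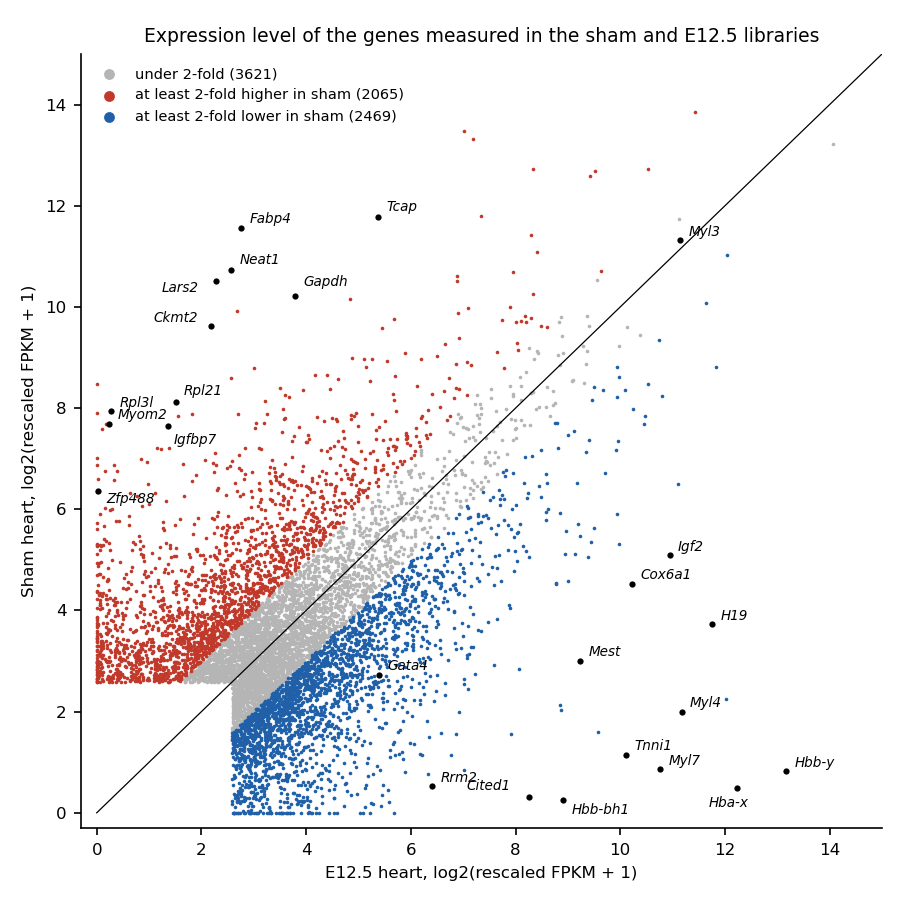
Level of each of the 8155 genes in the E12.5 library (x axis) and the sham library (y axis), both as log2(rescaled FPKM + 1), with genes called higher in sham in red (2065), lower in blue (2469) the rest in grey (3621) and the labelled genes in black. Fabp4, Tcap and Myom2 stand far above the line of equal level, the embryonic globins and the light chain genes Myl4 and Myl7 far below it, and Myl3 on it.

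Gata4, the zinc finger factor under study, stood at 2.73 in sham (159 reads) and 5.40 in E12.5 (4290 reads). It stood at 3.69 and 3.15 in adult, 2.81 in banding and 5.60 in the library labelled Gata4 KO. The level in sham was 7.32-fold lower than in E12.5 (interval 6.24 to 8.62), and both E12.5 libraries lay above the other 4. In the library labelled Gata4 KO the gene was not lower than in E12.5, and the labels do not say which exons the Gata4flox allele loses, so this level does not check that label.

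Both libraries carried high levels of the 2 ventricular light chains, while of the 10 measured ventricular markers 5 were lower in sham and 2 higher (median -1.71). Myl2, the ventricular regulatory light chain, stood at 13.23 in sham and 14.06 in E12.5, and Myl3, the ventricular essential light chain, at 11.32 and 11.15. Myl3 was also the highest of the genes that stayed within 0.25 of no difference. The others of highest level in that class were the respiratory chain and ATP synthase genes Cox4i1, Atp5b, Uqcrq, Ndufb8, Ndufa2, Cyc1 and Ndufc1 and the ribosomal protein genes Rpl41 and Rps9, with differences from -0.23 to 0.23. Lung markers were all under the limit in both libraries, and so were 7 of 8 liver markers.

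The largest differences upward were led by Fabp4, a fatty acid binding protein of capillary endothelium and fat, at 11.57 in sham and 2.76 in E12.5. Its FPKM ratio was 528 (interval 439 to 641). The mitochondrial leucyl-tRNA synthetase Lars2 stood at 10.51 against 2.27, and the nuclear noncoding RNA Neat1 at 10.73 against 2.56. For these 2 genes the sham and banding libraries stood together above adult, with Lars2 at 10.47 in banding and 5.35 and 5.05 in adult, and Neat1 at 10.08 in banding and 7.09 and 7.21 in adult. The ribosomal RNA precursor Rn45s did so too, at 13.48 in sham, 13.48 in banding, 8.55 and 8.80 in adult and 7.02 in E12.5. The part of ribosomal RNA reads in the Lars2 value was not tested. Malat1, another nuclear noncoding RNA chosen after its values were seen, stood at 12.73 in sham, 12.41 in banding, 10.95 and 10.90 in adult and 8.33 in E12.5. Among the 15 largest, Fabp4, Tcap, Ly6a, Zfp488 and 4932411L15 also stood more than 1 unit above adult in both sham and banding. Fabp4 was at 11.26 in banding and 9.72 and 9.80 in adult. Rpl21, Tuba8, Gapdh and Igfbp7 stood above adult in both by less than 1 unit. Rpl3l, Myom2, Ckmt2 and Xirp2 did not stand above adult in both.

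Striated muscle genes fill much of the same end. Rpl3l, the muscle form of ribosomal protein L3, stood at 7.95 against 0.28, Myom2, an M-band protein, at 7.69 against 0.24, and Ckmt2, the sarcomeric mitochondrial creatine kinase, at 9.62 against 2.19. Xirp2, an actin-binding protein, stood at 6.88 against 0.33, and Tcap, the titin cap of the Z-disc, at 11.78 against 5.37. For each of these muscle genes the 2 adult libraries and banding lay at least 4 units above both E12.5 libraries. The remaining genes among the 15 largest were Rpl21, Tuba8, Gapdh, Ly6a, Zfp488, 4932411L15 and Igfbp7. Zfp488 had 2922 reads in sham and 2 in E12.5. The gene 4932411L15 had 2126 and 0, which is 2614-fold higher when E12.5 is set at 3 reads (interval from 2124).

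Downward, 2 embryonic globins led, Hbb-y with 174999 reads in E12.5 and 4 in sham and Hba-x with 88889 and 2. They are transcripts of primitive red cells. Contractile genes of the fetal heart came next: Myl7 (0.86 in sham, 10.76 in E12.5), Myl4 (2.00 and 11.17) and Tnni1 (1.15 and 10.12). The globin Hbb-bh1 was 6th, with 8962 reads in E12.5 and 1 in sham. Among the 15 were also growth genes, with H19 at 3.73 against 11.76, Mest at 3.01 against 9.23 and Igf2 at 5.09 against 10.94. Rrm2 and Cks1b of the cell cycle, the transcriptional cofactor Cited1, the growth factor Mdk, the glycogen primer Gyg and the cytochrome oxidase subunit Cox6a1 completed the 15, with differences from -5.69 for Cox6a1 to -7.94 for Cited1.

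To describe groups of genes, 45 lists were read, and 1362 of their 1368 entries matched a listed symbol. A list is given by its members measured, those called and its median, beside 25.3% higher, 30.3% lower and a median of -0.16 over all genes measured. By median, 11 lists stood at 1 or more, 16 at -1 or less and 18 between. On the values as deposited, with no rescaling, 10 medians above 0 stood below it: those of ketone use, respiratory chain, glycolysis, calcium cycling, ion channels, intercalated disc, receptors, macrophage markers, antioxidant genes and hormone and nutrient response. Of these, respiratory chain, glycolysis, intercalated disc and hormone and nutrient response also did so with scaling over genes above 5 FPKM. The plot of list members orders them, from fat, antigen presentation and clock genes at the top to embryonic muscle isoforms, oncofetal regulators and mitosis at the bottom. The place of the fat list rests on 2 measured members of 11. Its summed level in sham was 11.58, beside 11.57 for Fabp4 alone, which is also in the endothelial list.

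**Figure D2:**
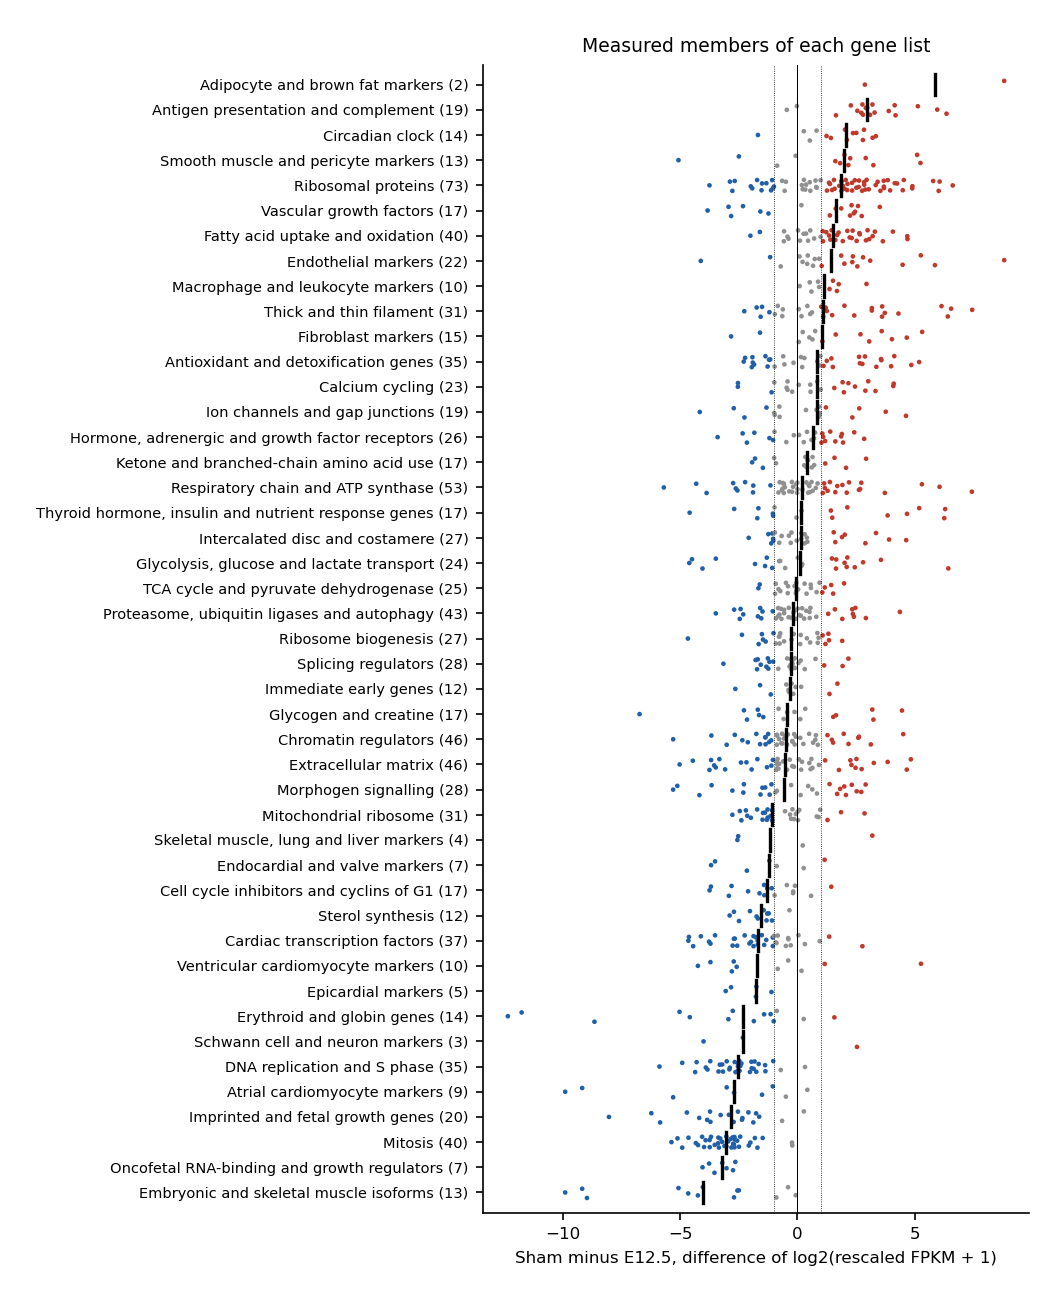
Difference between sham and E12.5 (x axis, log2 units) for each measured member of 45 gene lists, with the number of measured members in brackets. Each point is 1 gene, red when at least 2-fold higher in sham and blue when at least 2-fold lower and otherwise grey, black bars are list medians and dotted lines mark 2-fold. The medians run from 5.85 for 2 adipocyte markers to -4.03 for 13 embryonic and skeletal muscle isoforms.

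Contractile genes of the working heart were mostly higher in sham. In the list of thick and thin filament and Z-disc genes, 17 of 31 measured members were called higher and 5 lower, with a median of 1.10. That median depends on scaling: it was 0.02 on the values as deposited and 0.83 with scaling over genes above 5 FPKM. Myh6, the fast adult myosin heavy chain of the mouse, stood at 13.32 in sham and 7.18 in E12.5, a ratio of 71.2 (interval 70.3 to 72.0). The lower calls included Nebl, a thin filament protein of the heart, at 2.72 against 4.98, Myh7, the fetal heavy chain, at 8.35 against 10.09, and cardiac actin Actc1 at 10.07 against 11.64. Nebl and Actc1 stood at 5.67 and 5.68, and 12.04 and 11.87, in the adult libraries, above E12.5, so for these 2 genes sham and adult lay on opposite sides of the same E12.5 library. No member of the list of embryonic and skeletal isoforms was higher, and 10 of 13 were lower. Besides the light chains and Tnni1 these included Cnn1, the calponin of smooth and embryonic muscle, at 1.15 against 6.21, and the myosin light chain Myl9 at 5.32 against 9.97.

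Paired genes taken as an early and a late form can be compared within a library, free of scaling between libraries. They are isoforms of a protein or related genes of a family. The light chain pairs set an atrial against a ventricular form, and the calcium channel pair a T-type against an L-type channel. Of 26 such pairs, 20 stood at least 2-fold further towards the late form in sham than in E12.5, 2 further towards the early form and 1 differed by less than 2-fold. In the other 3 pairs 1 form had no read in at least 1 of the libraries. Where both forms had reads in a library, the late form exceeded the early form in 19 pairs in sham and 10 in E12.5. The enolase pair is outside the 19, since sham held reads of its late form only. In 11 pairs the late form was the more abundant in sham and the early form in E12.5, and Mef2a and Mef2c went the other way. The pairs were picked for this known exchange, so the count describes its extent in these libraries and is no independent evidence of it.

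Troponin I, which sets the calcium response of the thin filament, gave the widest difference in balance. The log2 ratio of Tnni3 to Tnni1 was 12.40 in sham, -0.61 in E12.5, 12.85 in banding and -2.16 in the Gata4 KO label, and Tnni1 had no read in adult. The ratio of Myh6 to Myh7 was 4.98 in sham and -2.92 in E12.5, and 4.82 and 4.81 in adult. For the light chains, Myl2 over Myl7 stood at 13.52 in sham and 3.31 in E12.5, and Myl3 over Myl4 at 9.74 and -0.02. Here sham exceeded the adult libraries, which held 9.59 and 11.05 for the first pair and 5.19 and 5.87 for the second. At the M-band, Myom2 over Myom1 was -0.15 in sham and -9.17 in E12.5.

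Mitochondrial and metabolic pairs with reads of both forms differed in the same direction, except Cpt1b over Cpt1a, given below. Cytochrome oxidase, the last complex of the respiratory chain, has heart and liver forms of 3 subunits. The ratio of Cox6a2 to Cox6a1 was 6.25 in sham and -0.59 in E12.5, that of Cox7a1 to Cox7a2 4.65 and -1.17, and that of Cox8b to Cox8a 4.25 and -2.74. Glucose uptake showed the insulin-responsive transporter Slc2a4 over Slc2a1 at 5.86 in sham and -2.33 in E12.5. Hexokinase Hk2 over Hk1 stood at 1.17 and -2.17, lactate dehydrogenase Ldhb over Ldha at 1.66 and -1.14, and creatine kinase Ckm over Ckb at 5.29 and 0.55. The lactate carriers Slc16a1 over Slc16a3 stood at 2.92 and -0.52, and the nucleotide translocators Slc25a4 over Slc25a5 at 6.55 and 3.68. Phosphoglycerate mutase Pgam2 over Pgam1 differed least of these 20 pairs, at 5.97 and 4.50.

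In membrane transport, Cacna1c, the L-type calcium channel, over the T-type Cacna1h was 6.71 in sham and 0.90 in E12.5. The calsequestrins Casq2 over Casq1 stood at 3.53 and 0.05. The calcium pump Atp2a2 over Atp2a3 was level at 7.44 and 7.35. Chromatin pairs followed the late form too: Smarca2 over Smarca4, the ATPases of the SWI/SNF remodeller, stood at 0.44 and -2.25, and Ezh1 over Ezh2, the methyltransferases of Polycomb, at -0.08 and -2.51. The 2 pairs that went the other way were Cpt1b over Cpt1a, the carnitine palmitoyltransferases, at -2.43 in sham and -0.56 in E12.5, and Mef2a over Mef2c at -0.61 and 0.78. Cpt1b had only 30 reads in sham and 327 in E12.5, and the adult libraries gave -3.23 and -5.48 for the same ratio. Eno1 had no read in sham and 153 in E12.5, and Eno3 stood at 8.88 and 6.86. The adult globins Hbb-b1 and Hba-a1 were listed at 0 in both libraries, and in each case near-identical gene copies make the count uncertain.

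**Figure D3:**
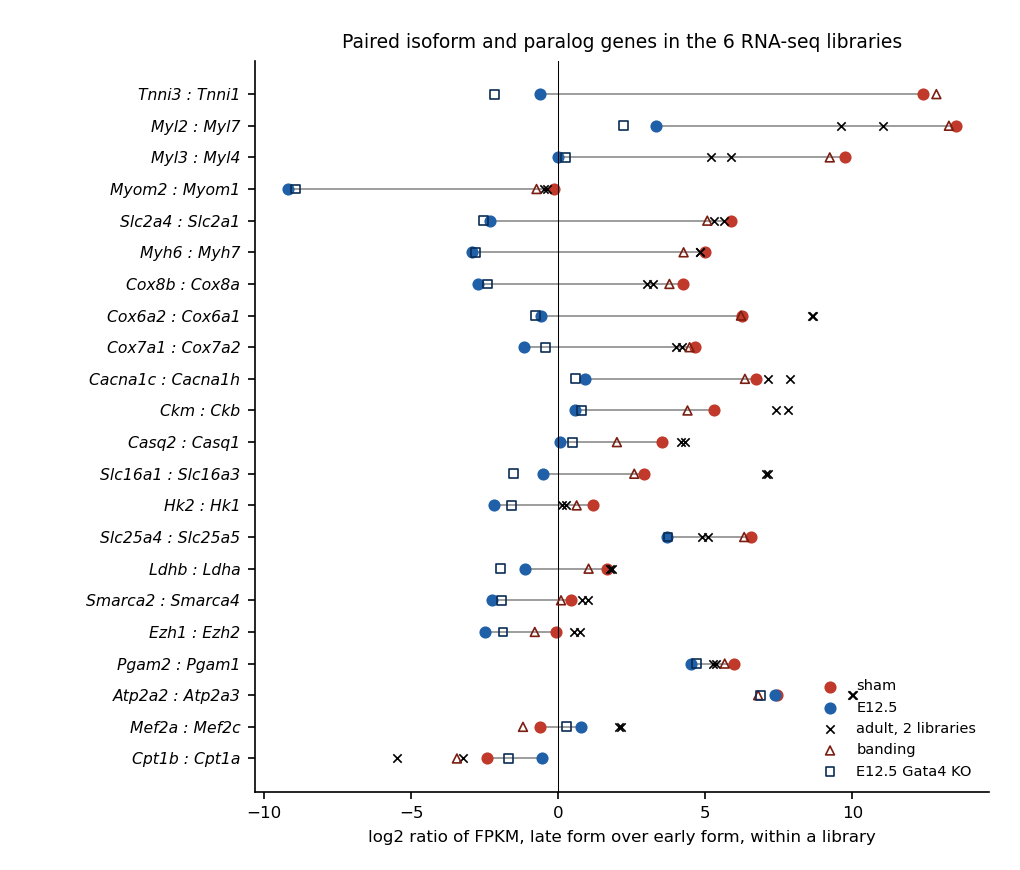
log2 ratio of FPKM of the late form over the early form (x axis) for pairs with reads of both forms in sham and E12.5 (1 such pair is not shown), in each of the 6 RNA-seq libraries. Filled red points are sham and filled blue points E12.5, joined by a line, crosses are the 2 adult libraries, open triangles banding and open squares the library labelled Gata4 KO, and points without reads are left out. Red lies right of blue in all pairs shown but Mef2a over Mef2c and Cpt1b over Cpt1a, at the bottom.

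Fatty acids are the main fuel of the adult heart, and genes of their uptake and oxidation were mostly higher in sham. Of 40 measured members 26 were called higher and 2 lower, with a median of 1.54. The median was 0.41 on the values as deposited and 1.34 with scaling over genes above 5 FPKM. Uptake and activation stood out in number, with 9 of 10 higher and a median of 2.85. Cd36, the fatty acid translocase, stood at 6.92 in sham and 2.22 in E12.5 (32.6-fold, interval 29.4 to 36.2). Lpl, the lipase that frees fatty acids at the vessel wall, stood at 8.53 against 5.23, and the fatty acid transporter Slc27a1 at 5.05 against 1.41. The droplet protein Plin5 had 275 reads in sham and 3 in E12.5, and the mitochondrial carrier Ucp3 516 and 2, a ratio of 952 with an interval of 262 to 7879.

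Within the enzymes of beta-oxidation 9 of 15 were higher and 1 lower, and in the carnitine shuttle 3 of 6 were higher. The exceptions were Acads, the short-chain acyl-CoA dehydrogenase, at 3.25 in sham and 5.25 in E12.5, and the nuclear receptor Esrrg at 1.83 and 3.43. Acads stood at 4.36 and 4.17 in adult, and Esrrg at 3.45 and 3.25. The median of the list between adult and E12.5 was 2.29, beside 1.54 for sham. These medians share the E12.5 library.

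The citric acid cycle did not follow. With pyruvate dehydrogenase, 5 of 25 members were higher and 2 lower, and the median was -0.05, whereas the same genes had a median of 1.52 between adult and E12.5. The pyruvate carrier subunits Brp44l and Brp44 (5.12 against 3.13, and 7.73 against 6.29) and the succinyl-CoA ligase subunit Sucla2 (6.48 against 4.96) were among those higher. Sdhd, an anchor of succinate dehydrogenase, stood at 5.82 against 7.48, and Idh3a, a subunit of isocitrate dehydrogenase, at 4.69 against 6.29. In adult Idh3a stood at 7.75 and 7.88, above both. Use of ketones and branched-chain amino acids had 4 of 17 higher and 3 lower, led by Oxct1, which activates ketone bodies, at 7.84 against 4.92, and Bdh1 at 3.91 against 1.84. Bckdk, the kinase that holds back branched-chain oxidation, stood at 3.32 against 5.25.

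Genes of the respiratory chain and ATP synthase were called higher in 17 of 53 cases and lower in 10, with a median of 0.22. Over all genes measured, 25.3% were higher and 30.3% lower. The spread within this list was wide. Ckmt2, Cycs, Uqcrb, Atp5h and Cox6c were highest, with Atp5h at 10.61 against 6.88 and Cox6c at 10.68 against 7.96, and Cox6a1, Cox8a and Cox7a2 lowest, with Cox8a at 5.06 against 9.38. Subunits of 1 complex stand in fixed proportion in the protein, and here members of each of complexes I and IV and of the ATP synthase were called in both directions. Cycs (7.21 against 1.16), Uqcrb (10.15 against 4.84) and Cox6a1 have near-identical copies in the genome and are uncertain.

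Genes of glycolysis were called in both directions. Of 24 measured genes 10 were higher and 8 lower, with a median of 0.10. The transporters of the embryo were lower in sham: Slc2a1 stood at 1.37 against 5.98, 39.1-fold lower (interval 28.0 to 56.5), and the lactate exporter Slc16a3 at 1.11 against 5.60. Pdk3, a pyruvate dehydrogenase kinase, stood at 0.78 against 4.83. Slc2a4 (6.54 against 3.74), Hk2 (6.10 against 3.66) and the phosphofructokinase regulators Pfkfb2 (4.92 against 1.36) and Pfkfb1 (3.20 against 1.07) were higher. Gapdh stood at 10.21 against 3.78, a value that is uncertain because of its many copies. For glycogen and creatine 5 of 17 were higher and 6 lower. Mb, the oxygen store of muscle, stood at 11.80 against 7.34 and Ckm at 9.09 against 5.90, while Gyg stood at 2.13 against 8.86 and the creatine synthesis genes Gatm and Gamt at 1.19 against 3.33 and 2.58 against 4.27.

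Calcium release from the sarcoplasmic reticulum drives each beat, and 8 of 12 genes of that store were higher in sham with none lower, at a median of 2.31. Trdn, which anchors the release channel, stood at 8.99 against 4.88, the calcium buffer Hrc at 9.77 against 5.68 and the release channel Ryr2 at 7.38 against 4.06. Casq2 stood at 7.87 against 4.85 and the calcium sensor S100a1 at 9.98 against 7.09. Genes of junctions and calcium entry were split, with 2 of 11 higher and 3 lower. The sodium-calcium exchanger Slc8a1 stood at 3.35 against 5.89, 6.31-fold lower (interval 5.98 to 6.66), the T-type channel Cacna1h at 0.48 against 3.02, and the kinase Camk2d at 3.62 against 4.72. Camk2d stood at 5.46 and 5.44 in adult, above E12.5.

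Among ion channels and gap junctions 5 of 19 were higher and 4 lower. Kcnip2, a subunit of the transient outward potassium current, had 187 reads in sham and 4 in E12.5 (4.84 against 0.21). Kcna5 (3.40 against 0.76), Scn4b (2.62 against 0.28) and Kcnk3 (6.07 against 4.85) were also higher. Gja5, the connexin of atrium and conduction system, stood at 1.63 against 5.79, and Kcne1 at 0.54 against 3.26. At the intercalated disc and costamere, where muscle cells join each other and the matrix, 8 of 27 were higher and 6 lower. The integrin partner Itgb1bp2 stood at 7.89 against 3.25, the muscle integrin Itga7 at 4.25 against 0.34 and dystrophin Dmd at 5.44 against 2.09. The dystroglycan gene Dag1 stood at 3.44 against 5.51, and at 6.28 and 6.20 in adult. Hormone and neurotransmitter receptors had 11 of 26 higher and 6 lower, with the retinoid receptor Rxrg at 3.09 against 0.24, the beta-adrenergic receptor Adrb1 at 3.04 against 1.10 and the muscarinic receptor Chrm2 at 4.29 against 2.43. The endothelin receptor Ednrb (2.06 against 5.46) and Erbb2 (1.72 against 4.05), a receptor in neuregulin signalling, were lower.

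Cell division genes were almost all lower in sham. In mitosis 38 of 40 measured members were lower and none higher, with a median of -3.03, and in DNA replication 33 of 35 were lower and none higher, with a median of -2.53. The cyclin Ccnb2 had 2 reads in sham and 2205 in E12.5, and its partner kinase Cdk1 3 and 3320. Cdc20, the activator of the anaphase-promoting complex, had 6 and 1863. Rrm2 stood at 0.53 against 6.41, the cyclin Ccna2 at 0.56 against 5.47, the replication protein Gins2 at 0.43 against 4.79 and the topoisomerase Top2a at 1.36 against 5.66. Adult and banding shared these low levels, with Ccnb2 at 0.47 and 0.13 in adult and 0.55 in banding, and 5.20 in the Gata4 KO label. The 4 members that were not called, named after their values were seen, were Smc4 (5.01 against 5.24), Cenpf (2.97 against 3.19), Pola1 (1.97 against 2.68) and Tyms (2.78 against 2.45). Of the G1 cyclins and inhibitors 10 of 17 were lower and 1 higher. Cdk4 stood at 3.60 against 7.34, Ccnd3 at 3.03 against 6.71 and the inhibitor Cdkn1c at 5.93 against 8.85, and Mdm2, which degrades p53, at 4.43 against 2.99.

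Promoters of mitotic genes often carry 2 short elements, the letters TTTGAA, known as the cell cycle homology region, and CCAAT boxes bound by the factor NF-Y. RefSeq promoters of the GRCm38.p6 build (250 bases before to 50 after each start) were found for 37 of the 43 mitosis genes, 39 windows in all, and searched on both strands for the whole list. TTTGAA was in 28 of 39 windows (71.8%), against 17.9% of all 32851 promoters, and CCAAT in 29 (74.4%), against 37.4%. Both were in 24 (61.5%), against 6.95% of all. For the DNA replication list, added after the values were seen, TTTGAA was in 7 of 39 windows (17.9%), CCAAT in 22 (56.4%) and both in 6 (15.4%). Any match is a match of letters, not a measured binding site. The windows of 3 mitosis genes that hold both are shown. They had the largest difference among measured genes, with promoters on 1 chromosome left out of the choice. All are on the minus strand and printed 5′ to 3′ of the gene. TTTGAA and CCAAT are in capitals (or TTCAAA and ATTGG, the same letters read from the other strand). The windows lie at chr9:70421505-70421804 (Ccnb2), chr10:69352863-69353162 (Cdk1) and chr4:118437294-118437593 (Cdc20).
Ccnb2: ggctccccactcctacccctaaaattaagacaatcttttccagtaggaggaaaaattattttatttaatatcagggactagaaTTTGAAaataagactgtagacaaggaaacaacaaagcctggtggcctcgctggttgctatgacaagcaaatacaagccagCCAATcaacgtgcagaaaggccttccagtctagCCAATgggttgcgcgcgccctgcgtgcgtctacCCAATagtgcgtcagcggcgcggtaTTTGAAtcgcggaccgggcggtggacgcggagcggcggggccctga
Cdk1: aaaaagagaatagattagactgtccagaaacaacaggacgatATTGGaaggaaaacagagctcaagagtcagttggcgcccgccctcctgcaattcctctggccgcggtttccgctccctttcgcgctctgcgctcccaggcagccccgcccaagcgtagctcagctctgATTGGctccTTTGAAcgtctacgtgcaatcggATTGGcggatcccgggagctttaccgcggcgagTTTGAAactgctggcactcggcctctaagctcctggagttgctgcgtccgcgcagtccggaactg
Cdc20: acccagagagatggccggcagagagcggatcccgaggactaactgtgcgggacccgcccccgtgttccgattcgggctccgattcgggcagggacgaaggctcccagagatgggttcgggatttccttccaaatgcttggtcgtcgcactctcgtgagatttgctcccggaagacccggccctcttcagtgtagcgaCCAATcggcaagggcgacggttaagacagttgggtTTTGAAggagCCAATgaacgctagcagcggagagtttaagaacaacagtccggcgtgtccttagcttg
The Ccnb2 and Cdk1 windows each hold 2 TTTGAA and 3 CCAAT matches, and the Cdc20 window 1 and 2.

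The same search was made for 2 other lists, with letters that are rarer among all promoters. The letters TNAAGGTCA, an element of estrogen-related receptors, were in 0 of 47 windows of 37 fatty acid genes and in 1.28% of all promoters. CTAAAAATA, a form of the MEF2 element of muscle genes, was in 2 of 37 windows of 26 filament genes (5.41%), against 0.517% of all. One of them is Xirp2, whose window at chr2:67445752-67446051, on the plus strand of GRCm38.p6, is shown with the match in capitals because this gene is among the 15 largest differences.
Xirp2: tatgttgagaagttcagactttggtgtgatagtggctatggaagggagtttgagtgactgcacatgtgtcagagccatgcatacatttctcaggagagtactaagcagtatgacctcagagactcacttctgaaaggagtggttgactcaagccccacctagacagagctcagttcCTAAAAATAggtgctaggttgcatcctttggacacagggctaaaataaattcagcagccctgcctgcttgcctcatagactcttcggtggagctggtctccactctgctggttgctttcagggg

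Fetal growth genes were low in sham. Among imprinted and growth genes 18 of 20 were lower and none higher, with a median of -2.82. The noncoding RNA H19 had 278149 reads in E12.5 and 267 in sham, 282-fold lower per FPKM (interval 251 to 320). Igf2, the fetal growth factor of the same locus, was 59.4-fold lower (interval 56.0 to 63.1), and Mest, Plagl1 (1.35 against 6.06) and the amino acid transporter Slc38a4 (0.99 against 5.17) followed. Meg3 at 2.57 against 3.23 and Impact at 3.13 against 2.85, named after their values were seen, were not called. All 7 measured oncofetal regulators were lower. Igf2bp1, an RNA-binding protein of the embryo, had 1 read in sham and 4036 in E12.5, Igf2bp3 stood at 0.66 against 4.42 and Hmga2, a chromatin protein of growing tissue, at 0.27 against 3.80.

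Cardiac transcription factors were lower in 24 of 37 cases and higher in 2, with a median of -1.69. Nkx2-5, a partner of Gata4, stood at 2.44 in sham and 7.09 in E12.5 (30.5-fold lower, interval 23.4 to 40.4), and at 3.67 and 3.60 in adult. Hand1 had no read in sham and 1207 in E12.5, which is 109-fold lower when sham is set at 3 reads. The inhibitor Id2 (1.16 against 5.78), Prrx2 (no read in sham, 4.11 in E12.5) and Hopx (4.11 against 7.88) were the next lowest. Core factors had 9 of 16 lower and chamber and patterning factors 15 of 21. The 2 higher genes were Prrx1, a factor of mesenchyme, at 3.11 against 0.34, and Mef2c at 4.86 against 3.51.

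Morphogen pathways are given by family. Notch genes had 4 of 7 higher and none lower, with a median of 1.82, including Notch4 of endothelium at 4.22 against 1.69. Wnt and hedgehog genes had 4 of 5 lower, with the receptor Fzd2 at 0.58 against 4.76 and the ligand Wnt5a at 0.69 against 3.46, while the Wnt inhibitor Dkk1 was higher at 2.93 against 0.02. In the BMP and TGF-beta group 5 of 10 were lower and 2 higher. Bmp10, a trabecular ligand, had 1 read in sham and 1690 in E12.5, and Bmp7 6 and 2798. The FGF, neuregulin and retinoid group had 2 of 6 higher and 3 lower, with a median of -1.02, and its retinoic acid receptor Rarg stood at 4.06 against 1.34.

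In chromatin regulation 14 of 46 genes were lower and 9 higher, a share close to all genes. The histone variants H2afx (1.56 against 6.85) and H2afz (2.71 against 6.37) and the replication-linked Uhrf1 (a difference of -3.01) were lowest. Smarca2 (5.65 against 2.52) and the Polycomb protein Cbx7 (3.04 against 0.42) were higher, and so was Hmgb1 (7.71 against 3.20), which has many copies and is uncertain. Splicing regulators were lower in 10 of 28 cases and higher in 3. The 3 were Rbfox1 (a difference of 2.17), Rbm20 (1.93), which splices titin, and Mbnl1 (1.14), while Srsf2 stood at 4.58 against 7.73 and Ptbp1 at 3.41 against 5.19.

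Markers of other cells of the heart differed between the libraries, and in bulk tissue a change in the share of a cell type and in RNA per cell cannot be told apart. Of the 22 endothelial markers 12 were higher and 2 lower, with a median of 1.45. The median was 0.42 on the values as deposited and 1.61 with scaling over genes above 5 FPKM. Ly6c1 of capillaries had 426 reads in sham and 1 in E12.5, the water channel Aqp1 stood at 6.90 against 1.64, and Gpihbp1, which holds Lpl on capillaries, at 5.74 against 1.26. General endothelial markers differed less, with Cdh5 at 6.16 against 5.42 and Tek at 4.46 against 4.24, both named after their values were seen. Plvap, of fenestrated and embryonic endothelium, stood at 1.91 against 6.02. The list's summed level was 11.94 in sham and 8.53 in E12.5, and Fabp4 is its largest member.

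Mural and fibroblast genes were higher as well. Of 13 smooth muscle and pericyte markers 9 were higher and 2 lower (median 2.00), with the smooth muscle myosin Myh11 at 5.30 against 0.06 and the pericyte gene Rgs5 at 5.34 against 0.24. The 2 lower were Cnn1 and Acta2 (5.52 against 8.02), smooth muscle genes that the embryonic heart muscle also expresses. Of 15 fibroblast markers 8 were higher and 2 lower (median 1.06). Between adult and the same E12.5 library the medians were 0.98 for smooth muscle and pericyte markers and 0.15 for fibroblast markers. The summed fibroblast level was 9.71 in sham and 10.67 in banding, 9.19 in E12.5, and 8.27 and 8.54 in adult. Dpt, a matrix protein, had 528 reads in sham and none in E12.5, which is 649-fold higher when E12.5 is set at 3 reads. Dcn, a proteoglycan, stood at 8.26 against 3.60. Tcf21, an epicardial and fibroblast factor, stood at 1.25 against 4.07.

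Epicardial and endocardial genes leaned the other way. All 5 measured epicardial markers were lower: Krt19 (1.55 against 4.61), Tcf21, Tbx18 (2.08 against 3.85), Upk3b (3.13 against 4.88) and Aldh1a2 (1.76 against 2.87). Endocardial and valve markers had 4 of 7 lower and 1 higher, with the proteoglycan Vcan at 1.18 against 4.85 and Tbx20 at 1.48 against 4.99. Atrial markers were lower in 7 of 9 cases. Nppa, the atrial natriuretic peptide, which embryonic ventricles also make, stood at 8.82 in sham, 11.83 in E12.5, 7.60 and 7.34 in adult and 12.91 in banding. Myl7 and Myl4 had 4 and 22 reads in sham, while adult held Myl7 at 4.55 and 3.14 and Myl4 at 6.62 and 5.94. How much atrium each sample held is not given in the labels, and its part in the differences was not tested. Ventricular markers had 5 of 10 lower and 2 higher. Smpx stood at 4.54 against 8.78 and Hey2 at 1.69 against 5.40, and Xdh, xanthine dehydrogenase, had 1440 reads in sham and 1 in E12.5.

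**Figure D4:**
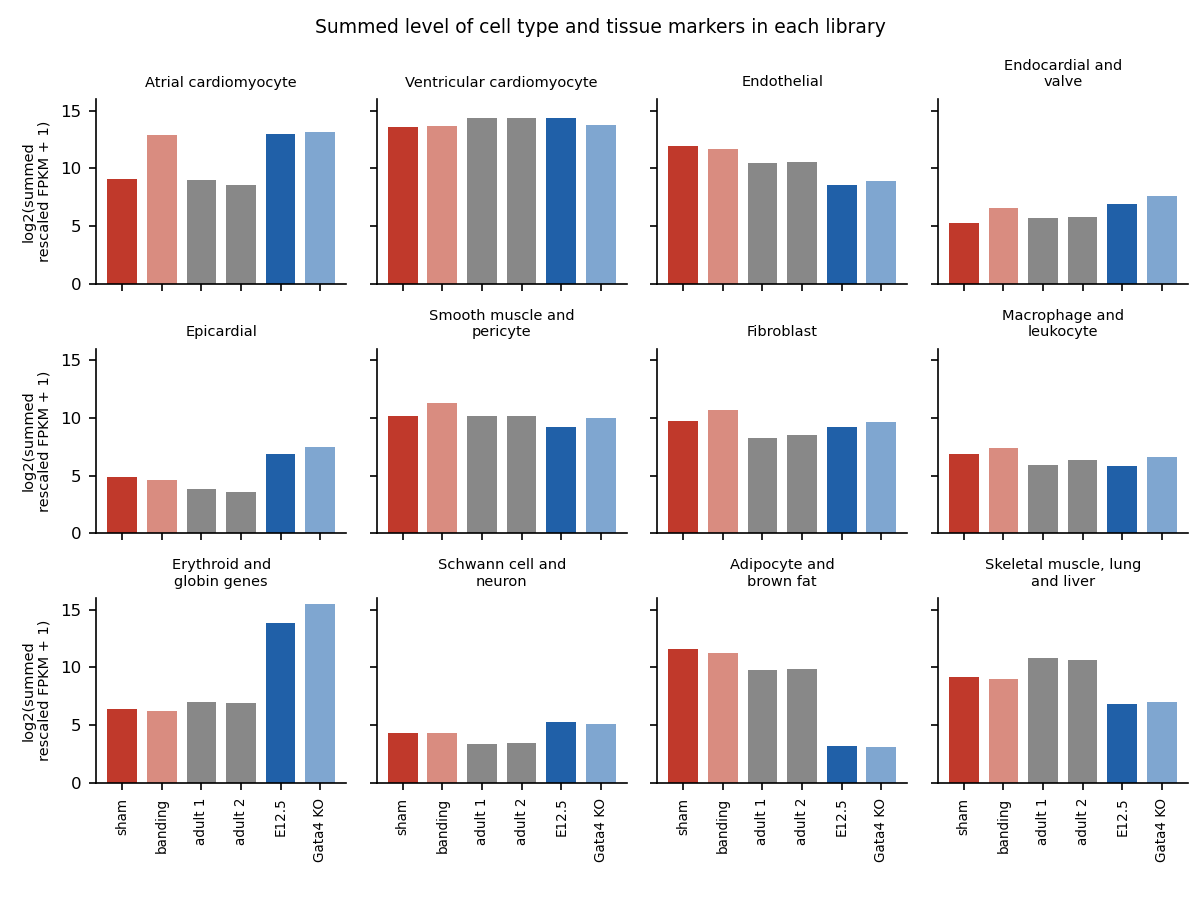
Summed level of 12 lists of cell type and tissue markers (y axis, log2 of summed rescaled FPKM + 1, from 0) in the 6 RNA-seq libraries, 1 bar a library. Erythroid genes stood at 13.85 in E12.5 and 6.40 in sham, endothelial markers at 8.53 and 11.94, and atrial markers at 12.95 and 9.05, where banding reached 12.92.

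Blood and immune transcripts also separated the libraries. Of 14 erythroid genes 11 were lower and 1 higher. Beyond the globins, the red cell anion exchanger Slc4a1 stood at 0.11 against 5.13 and the carbonic anhydrase Car2 at 0.56 against 5.14. The summed erythroid level was 15.45 in the Gata4 KO label and between 6.25 and 7.03 in adult, sham and banding. Antigen presentation and complement genes were higher in 17 of 19 cases with none lower, and a median of 2.98. The class I gene H2-D1 stood at 7.19 against 1.23 (107-fold, interval 85.0 to 138), the class II invariant chain Cd74 had 420 reads in sham and 2 in E12.5, the complement factor C3 stood at 4.29 against 0.11 and the immunoproteasome subunit Psmb8 at 4.71 against 0.57. B2m, the partner of class I, was level at 7.41 and 7.43, named after its values were seen. Macrophage markers were higher in 5 of 10 cases, with C1qa at 4.50 against 1.55 and Mrc1 at 2.74 against 1.22, and 18 of the list's 28 members were under the limit. Their median was 1.15, and -0.15 between adult and the same E12.5 library.

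Of 46 matrix genes 11 were higher and 15 lower, with a median of -0.52, and both shares were close to those over all genes. The lower members included the microfibril protein Mfap2 (1.15 against 6.17), fibronectin Fn1 (2.55 against 7.01) and fibrillin Fbn2 (0.43 against 4.17). The higher members included the protease inhibitor Timp4 (332 reads in sham and 1 in E12.5), elastin Eln (4.77 against 0.92) and Dcn. Vascular growth factor genes were higher in 10 of 17 cases and lower in 6. The hypoxia factor Epas1 stood at 6.31 against 2.79 and its relative Hif1a at 2.94 against 5.77, Vegfa at 7.15 against 4.41, and the guidance cue Slit2 at 0.24 against 4.07.

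Genes of the daily clock and of hormone response differed too. Clock genes were higher in 10 of 14 cases and lower in 1, with a median of 2.07. The repressors Nr1d2 (4.78 against 1.44) and Nr1d1 (5.06 against 2.26), the activator Tef (5.70 against 2.49) and Per2 (3.68 against 0.84) were higher, and Nfil3 was lower at 1.22 against 2.90. The hour of collection is not given in the labels, and clock genes vary with it. Genes that respond to thyroid hormone, insulin and nutrients were higher in 8 of 17 cases and lower in 6. Thrsp, a thyroid hormone responsive gene of lipid synthesis, stood at 6.58 against 0.32, and Zbtb16, which glucocorticoids induce, at 5.36 against 0.17. The growth factor binding proteins divided, with Igfbp7 at 7.65 against 1.36 and Igfbp2 at 0.13 against 4.72. All but 1 of 12 sterol synthesis genes were lower and none was higher, among them the regulator Srebf2 (1.71 against 4.41). Immediate early genes, which handling can raise, were called higher in 2 of 12 cases and lower in 3. Antioxidant genes were higher in 15 of 35 and lower in 10, with the extracellular dismutase Sod3 at 5.30 against 0.11, the glutathione transferase Gstm1 at 7.11 against 2.25 and the peroxidase Gpx1 at 4.73 against 7.02.

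Protein synthesis and turnover gave mixed values. Cytosolic ribosomal protein genes were higher in 45 of 73 cases and lower in 14, with a median of 1.87. Their differences included 6.62 for Rpl21 and 6.06 for Rps6, and -2.88 for Rpl34 and -2.77 for Rps20, although their proteins are made in equal numbers. Many have near-identical copies, so single values are uncertain. Without ribosomal protein genes, a setting chosen after the data were seen, 2015 genes were higher and 2447 lower. Mitochondrial ribosome genes were higher in 3 of 31 cases and lower in 16, with a median of -1.07, and -0.03 between adult and E12.5. Mrpl10 stood at 2.44 against 5.21 and Mrps27 at 1.68 against 3.88. In ribosome biogenesis 5 of 27 were higher and 7 lower, with Nop10 at 2.92 against 7.59. Proteasome subunits were higher in 5 of 23 cases and lower in 8, with Psmb5 at 3.36 against 6.83, and the muscle ubiquitin ligase Trim54 stood at 7.20 against 2.83.

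Features that the rule did not use also varied with the difference. RefSeq lists a pseudogene named after 256 of the measured genes, and of these 38.3% were higher and 26.6% lower in sham, with a median of 0.29. With ribosomal protein genes left out, 195 remained, of which 29.2% were higher and 29.7% lower, with a median of -0.10. By length of the gene model, recovered from the values, the shortest 2040 genes (up to 1586 bases) had a median of -0.61 with 22.2% higher and 41.3% lower. The longest 2039 genes (4062 bases or more) had a median of 0.35 with 30.4% higher and 19.3% lower. The 2 groups of like size between them had medians of -0.36 and -0.08. Between adult and the same E12.5 library the medians were -0.71 in the shortest and 0.31 in the longest group. The part of length in any list was not tested.

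A pair of other libraries gives the same contrast without sharing a library with it: banding against the E12.5 library labelled Gata4 KO, chosen after the data were seen. It carries the operation and the label in addition to age. There, 2074 of 8123 genes were higher (25.5%) and 2280 lower (28.1%). Of the genes called higher in sham, 1735 were also called higher in that pair, 84.0% of the first list and 83.7% of the second. Of those called lower, 1973 were shared, 79.9% and 86.5%. None was called the opposite way, and 8 and 19 had the opposite sign. The list medians of that pair were -2.51 for mitosis, -3.28 for imprinted genes, 1.20 for fatty acid genes, 2.54 for antigen presentation and 1.83 for filament genes. Sham and banding share their high Rn45s level and low share of reads on listed genes, and E12.5 and the Gata4 KO label their low Rn45s level, so the overlap does not separate age from what each pair of libraries shares.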

How the data were processed

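Poly(A) RNA-seq was read from 6 deposited files, each listing 23284 gene symbols with 1 value and placeholder words in place of coordinates. The values deposited by the authors are log2(FPKM + 1), a scale read from the values, since undoing it leaves low values of a gene in whole-number ratios between libraries. Per the submitters' processing notes the series used the build mm9 and BWA 0.5.9, MACS 1.4, HTSeq 0.5.3, TopHat 1.4 and CASAVA 1.8.2. The sources used here do not assign any of them to these files. Whole reads were recovered for 100% of 98043 values above 0, within 0.001 of a read. The length of each gene was the shortest that made all its values whole, so this share is no independent check of the reads. FPKM were divided by the median ratio to the geometric mean of sham and E12.5 (0.687 for sham, 1.46 for E12.5), and the other libraries were put on that scale. The 5 FPKM limit was applied after rescaling. Members, gene lists and tests were chosen with earlier results of these data known. Named genes were Gata4, every isoform pair, the 15 largest differences each way without predicted genes, clones named Rik, small and ribosomal RNAs, olfactory receptors and pseudogenes, up to 5 members of each list in the direction of most calls and up to 3 the other way, and the 10 highest genes within 0.25 of no difference. Python 3.11.15, numpy 2.4.6, pandas 2.3.3 and scipy 1.17.1 were used. Scaling and calls were run on simulated libraries in which few genes differed, evenly in both directions, with counting noise alone. Such libraries cannot check the scaling where many genes differ, as here. Alternatives changed the scaling, the pseudocount of 1, the filter and the fold. The DNA libraries of the series were not analysed here. Some genes that the rule names are not reported here.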

Additional observations from a re-analysis of the deposited data

How the results depend on the processing

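With 1 library a group no replicate can be left out. The intervals cover counting error alone, and other variation between libraries in these differences was not measured. No paired analysis was possible because each group holds 1 library and no test was run. The counts of 2065 higher and 2469 lower genes moved by more than 1.5 times under 3 settings: 871 and 4976 on the values as deposited with no rescaling, 968 and 1033 among genes with at least 20 FPKM, and 976 and 969 at 4-fold, the last 2 because fewer genes can pass. Upper-quartile scaling gave 2196 and 2307, scaling without the 50 highest genes 2065 and 2465, a pseudocount of 0.1 2213 and 2649, a limit of 1 FPKM 3039 and 3140, and the limit taken on the deposited scale 1765 and 2721. The number of lists whose median reached 1 in either direction ranged from 21 to 30 beside 27, and the isoform pairs past 2-fold towards the late form were 23 with 1 FPKM added to both forms, beside 20, but in 2 of the 3 added, the globin pairs, the late form had no read in either library, so their ratio shows the early form alone. Of 360 list medians under the alternatives 26, from 15 lists, had the other sign, 10 of them on the values as deposited, 6 at 20 FPKM, 4 with scaling over genes above 5 FPKM, 3 at 1 FPKM, 2 with the limit on the deposited scale and 1 with upper-quartile scaling. In 4 of them the list's median had been at least 1 in size. Macrophage markers stood at -0.67 on the values as deposited, Schwann cell and neuron markers at 1.06 with the limit at 1 FPKM, and skeletal muscle, lung and liver markers at 0.24 with that limit and 0.32 at 20 FPKM. The cause was not tested. The last 2 lists have 3 and 4 measured members.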
